A study of Mus musculus with 37 samples.

Results

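RNA helicases of the DEAD and DEAH box families were represented by 90 open reading frames (ORFs) in 47 genes, out of 22367 ORFs in 10327 families of transcripts that the authors listed as translated in mouse bone marrow-derived dendritic cells. The members were chosen by name alone: every family called Ddx or Dhx followed by a number was kept, except Ddx58 and Dhx58, which sense viral RNA. Of the 47 names, 32 began with Ddx and 15 with Dhx. In RefSeq's current naming, 45 matched a gene symbol and 2 an older name. Ddx39 is now Ddx39a, and Ddx26b is now Ints6l, a name of the Integrator family that is outside the naming rule. Ddx26b was kept as a member, so counts of helicases here include it. Whether each protein holds the helicase motifs was not analysed here.

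The list came from ribosome footprints, pieces of mRNA that a ribosome shields from nuclease digestion, of cells grown from the marrow of C57BL/6J mice aged 6 to 8 weeks. Cells were exposed to lipopolysaccharide (LPS), a bacterial cell wall component, at 100 ng/mL for 0.5 to 12 h at 8 time points, and these libraries were made with cycloheximide (100 ug/mL for 1 min, 16 libraries), with no inhibitor (8), or from mixed LPS times with harringtonine (1 ug/mL for 5 min, 1 library) or lactimidomycin (50 ug/mL for 30 min, 1 library). Cycloheximide halts elongating ribosomes, while harringtonine and lactimidomycin hold ribosomes mostly at start codons. A mock time course with cycloheximide had 8 libraries, and naive cells had 2 libraries with cycloheximide and 1 with no inhibitor. The 37 libraries shared a single ORF list with no value per library, so LPS, mock, naive and inhibitor groups were not compared, no ORF had a replicate, and the depth behind an ORF is unknown.

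As a check of the cell type, 11 of 12 dendritic cell markers had an ORF, among them Itgax, Cd74, H2-Ab1 and Zbtb46, and Flt3 had none. Markers of other cells were listed too: 4 of 4 of macrophages, 7 of 7 of neutrophils, 4 of 4 of fibroblasts, 2 of 4 of mast cells, 1 of 4 of B cells and 0 of 4 of T cells. Which cells the helicase ORFs came from was not tested.

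DEAD and DEAH box proteins use ATP to unwind short RNA duplexes or to strip proteins from RNA. DEAD box proteins mostly open a duplex locally, while DEAH box proteins move along a strand, and between them they act at nearly every step from splicing and export to ribosome assembly, translation and decay. In dendritic cells and other cells of innate immunity some are also linked to the response to viral RNA.

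For 8 of the helicases the start codon of the main ORF, the longest listed ORF of a gene, lay so close to the start of the transcript that it could be read in a RefSeq table of transcript starts. This table covers 50 transcribed bases per gene start in GRCm38.p6, and it is used only for letters, since the ORF coordinates are in mm9. At the distance from the transcript start that the authors' model gives, ATG stood in all 8 genes, against 57.7% of the 881 main ORFs in the list with a leader of at most 47 bases and a table entry. A gene counted if any of its entries had ATG there, which for Ddx49 was 1 of 2. Among other helicase ORFs looked up in this way, the Dhx37 splice variant had ATG. The upstream ORF of Ddx46 had CTC, that of Dhx9 TGA, and the Ddx56 splice variant AGG. This Ddx56 variant shares the start of its main ORF but has a listed leader of 14 bases, not 10. A miss therefore need not mean another start codon, and 57.7% is no measure of how often ATG is used. The sequences are shown because they give the start codon of the main ORF and its surroundings in these 8 genes. In Ddx54 an inner start, described below and beyond the bases shown, scored higher (959 against 703). Each is 30 bases, 5′ to 3′, with the start codon in capitals. They begin at the transcript start, except those of Ddx27 and Ddx47, which begin 15 bases before the start codon.

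Ddx54: gcccgcATGgctgctggcagacgtgtggga
Ddx56: gagtcacgccATGgaggaccaagaagcgct
Dhx37: gcgagggagccATGgggaagctgcgacgcc
Ddx55: agttcattctgtcgATGcttctgcagcgtt
Ddx49: gcccgggtctggagcATGgcggggttcgct
Ddx27: ggctgcttcttcagcATGctggcggagctc
Ddx47: gagcccacgagcaagATGgcggcggacgag
Dhx29: ATGgaggaggctgggtggaggcgtgggagc

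In GRCm38.p6 these bases are at chr5:120613130-120613159 on the plus strand for Ddx54, chr11:6267700-6267729 on the minus strand for Ddx56 and chr5:125434019-125434048 on the minus strand for Dhx37. They are at chr5:124552864-124552893 on the plus strand for Ddx55, chr8:70302423-70302452 on the minus strand for Ddx49 and chr2:167015319-167015348 on the plus strand for Ddx27. Those of Ddx47 are at chr6:135011627-135011656 and those of Dhx29 at chr13:112927680-112927709, both on the plus strand. The leader, the stretch of the listed transcript before the main start, had 6 bases in Ddx54, 10 in Ddx56, 11 in Dhx37, 14 in Ddx55, 15 in Ddx49, 21 in Ddx27 and 30 in Ddx47. That of Dhx29 had 0 bases, and its listed transcript also ended at the stop codon, so this model holds coding sequence alone. Of the 8 genes, 7 belong to the ribosome biogenesis group described below, which holds 15 of the 47 helicases. The 8 genes were taken by leader length and RefSeq table entry, which 881 of all 10327 families met. The count of 7 is small and was not tested. Over all 47 helicases the median leader was 154 bases (95% interval 105 to 198), with a range of 0 to 2208, against 186 bases over all families.

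The helicases' main ORFs were long. Their median was 751 codons (exact 95% interval of the median 673 to 874, quartiles 618.5 and 965), against 438 codons over all families, 441 in 60 families of translation initiation and elongation factors, and 355 in 27 families of SR and hnRNP splicing factors. The Dhx proteins, at a median of 1145 codons (673 to 1388), were longer than the Ddx proteins, at 674.5 codons (186 to 1736), with overlapping ranges. Coding exons numbered 22 at the median in Dhx genes and 14.5 in Ddx genes, against 8 over all families. These medians describe a single list, with no test. Related genes such as Ddx3x and Ddx3y, or Ddx19a and Ddx19b, may share reads that were assigned to either, so their ORFs are uncertain. How alike the sequences of such pairs are was not analysed here.

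Each ORF carries a score given by the authors, a whole number from 500 to 991 in this list, with no unit and used here only to describe and rank ORFs within it. The helicases' main ORFs had a median score of 943 (interval 848 to 967), against 927 over all families, and 28 of 47 scored 900 or more (59.6%, exact Clopper-Pearson 95% interval 44.3 to 73.6) against 57% of all families. That share lies near that of the whole list. The 5 highest were Ddx6 (991), Ddx5 (990), Ddx3x (988), and Ddx52 and Ddx24 (986 each), and the 5 lowest were Ddx20 (525), Dhx8 (541), Ddx60 (600), Dhx40 (626) and Ddx19a (636). Ddx6 scored above 98.5% of all main ORFs and Ddx20 above 1.51% of them.

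**Figure D1:**
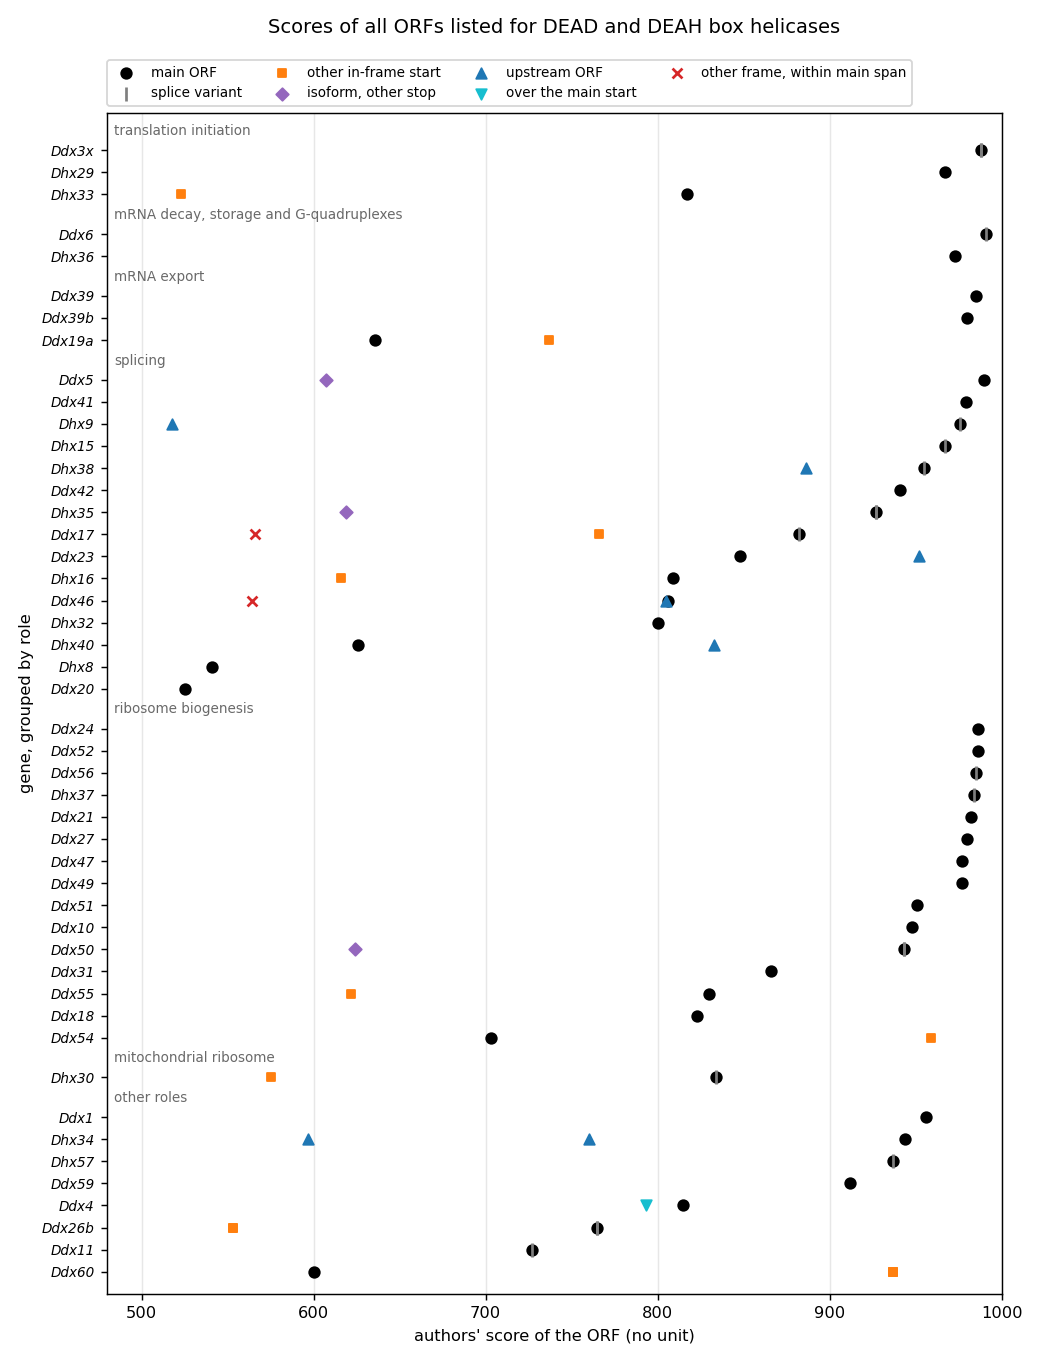
The authors' score (x axis, no unit) of each of the 90 ORFs by gene (y axis, grouped by role and sorted by the score of the main ORF); symbols give the class of the ORF. Main ORFs run from 525 (Ddx20) to 991 (Ddx6), splice variants lie on their main ORF's score, and in 5 genes (Ddx19a, Ddx23, Ddx54, Ddx60 and Dhx40) another ORF lies to the right of the main ORF.

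By role, the helicases of translation initiation with a Ddx or Dhx name came with 3 of the 4 genes sought. Eif4a1 and Eif4a2, sought among the other RNA helicases below, had no ORF in the list. Ddx3x, which helps ribosomes load on structured leaders, had a 662-codon main ORF at score 988 on chromosome X, 12858239 to 12868618 (mm9, counted from 1, as are all positions from here on), and 2 variants of 661 codons. Dhx29, which binds the small ribosomal subunit during scanning, had a single ORF of 1365 codons at score 967. Dhx33 had 673 codons at score 817. Ddx3y, the copy of Ddx3x on the Y chromosome, had no ORF in the list used here.

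Of the helicases of mRNA decay and G-quadruplexes, Ddx6, an activator of decapping that gathers in P-bodies, had a main ORF of 483 codons, and Dhx36, which unfolds G-quadruplexes, had a single ORF of 1001 codons at score 973. The mRNA export helicases were Ddx39 (427 codons, 985) and Ddx39b (428 codons, 980), close relatives that load export factors on mRNA, each with a single ORF, and Ddx19a (478 codons, 636), which releases mRNA at the nuclear pore. Its relative Ddx19b had no ORF in the list. Ddx19a scored lowest of the 3, and its inner start, which scored higher, is described below.

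All 15 splicing helicases sought were present, with 32 ORFs, main ORFs of 615 to 1384 codons and scores of 525 to 990. Of the 15, 7 scored 900 or more, against 57% of all families, a small count that was not tested. Ddx5 (615 codons, 990) and its relative Ddx17 (709 codons, 882) act in splicing and microRNA processing. Among helicases of the spliceosome, Ddx41 (622 codons) scored 979, Dhx15 (795), which takes spent spliceosomes apart, 967, Dhx38 (1228) 955, Ddx42 (929) 941, Ddx23 (819) 848, Dhx16 (1064) 809 and Ddx46 (1057) 806. Dhx8 (1240 codons), which frees the spliced mRNA, scored 541, and Ddx20 (807), a part of the SMN complex that assembles small nuclear ribonucleoproteins, scored 525. Dhx9, also called RNA helicase A, had 1384 codons at score 976. The others were Dhx35 (703 codons, 927), Dhx32 (751 codons, 800) and Dhx40 (680 codons, 626).

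All 15 ribosome biogenesis helicases sought were present too, with 22 ORFs, and 10 of the 15 had a single ORF, against 43.5% of all families. Their main ORFs had 455 to 1161 codons, and 11 of 15 scored 900 or more, against 57% of all families, with a group median of 977. These counts are small and were not tested. These nucleolar proteins remodel ribosomal RNA precursors. At the upper end were Ddx24 (857 codons, 986), Ddx52 (598, 986), Ddx56 (546, 985), Dhx37 (1161, 984), Ddx21 (851, 982), Ddx27 (760, 980), Ddx47 (455, 977) and Ddx49 (480, 977). Ddx51 (459 codons) scored 951, Ddx10 (875) 948 and Ddx50 (724) 943. The lower scores were those of Ddx31 (687 codons, 866), Ddx55 (618, 830), Ddx18 (660, 823) and Ddx54 (874, 703). Ddx21 and Ddx50 are close relatives that lay side by side on the minus strand of chromosome 10, 13619 bases apart. Ddx21 was listed with 1 ORF and Ddx50 with 4.

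Dhx30, which takes part in mitochondrial ribosome assembly, had a main ORF of 1217 codons at score 834, and Ddx28, with the same task, had no ORF in the list. The remaining 8 members had other roles. Ddx1 (740 codons, 956) belongs to the tRNA ligase complex, Dhx34 (1145 codons, 944) to nonsense-mediated decay, and Ddx60 (1736 codons, 600) to the interferon-induced antiviral genes. Ddx11 (906 codons, 727) is a DNA helicase of chromosome cohesion that carries the family name. Dhx57 (1388 codons) scored 937, Ddx59 (619) 912 and Ddx26b (898) 765.

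Ddx4, the germ line helicase Vasa, was listed with short ORFs alone. Its main ORF had 186 codons at score 815, at chromosome 13, 113389153 to 113391705, on the minus strand. It began 1598 bases into a listed transcript of 21 exons and used 4 of them. Another ORF of 112 codons at score 793 began 1587 bases into the same transcript, in another frame, and ran over the start of the main ORF. Whether the 186 codons continue the frame of the Vasa protein was not tested. Besides Ddx3y, Ddx19b and Ddx28, the naming table holds 2 protein-coding genes of the rule with no ORF in the list, Ddx25 and Ddx43, so 46 of its 51 such genes had an ORF. The share of all protein-coding genes with an ORF is not given here, so 46 of 51 has no background beside it. An absence can have several reasons, among them no transcript model, too few footprints or a score under 500, and these were not told apart.

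Upstream ORFs, which end before the main start, were listed in 6 helicases (12.8%, interval 4.83 to 25.7), against 16.4% of all families. With the ORF of Ddx4 over its main start, the count was 7 of 47 (14.9%, interval 6.20 to 28.3), against 20.2% of all families, 8 of 60 translation factors and 5 of 27 SR and hnRNP factors. The share of all families lies inside the interval of the helicases. Such short ORFs are known in other genes to catch scanning ribosomes before they reach the main start. Of the 6 genes, 5 are splicing helicases (5 of 15), the other being Dhx34, and none of the 15 ribosome biogenesis helicases had one. These counts are small and were not tested.

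Ddx23 had an upstream ORF of 7 codons on chromosome 15, 98493284 to 98493307, on the minus strand, whose score of 952 was above that of its main ORF (848). It stopped 30 bases before the main start. Dhx40 had one of 40 codons on chromosome 11, 86619997 to 86620119, minus strand, at score 833 against 626 for its main ORF, with 52 bases between its stop and the main start. These were the 2 helicases whose upstream ORF outscored the main ORF.

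In the other 4 the upstream ORF scored below the main ORF. Dhx38 had an 11-codon ORF on chromosome 8, 112089468 to 112089503, at score 886 against 955, which stopped 94 bases before the main start. Ddx46 had an 11-codon ORF on chromosome 13, 55736397 to 55736432, at score 805 against 806, which stopped 29 bases before it. These 2 scores in Ddx46 differ by a single point.

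Dhx34 had ORFs of 40 codons (score 760) and 30 codons (score 597) with a common stop on chromosome 7, at 16804153, 105 bases before a main ORF that scored 944. Dhx9 had an ORF of 34 codons that crossed an exon junction, on chromosome 1, 155330997 to 155334761, at score 518 against 976, and its stop lay 16 bases before the main start. Each of the 7 upstream ORFs lay on a listed transcript that also holds the main start. The median gap from stop to main start was 52 bases (16 to 105) for these 7 ORFs with 6 stops, against 115 bases for 2615 such ORFs in all families. A gap cannot exceed the leader, and its relation to leader length was not tested.

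**Figure D2:**
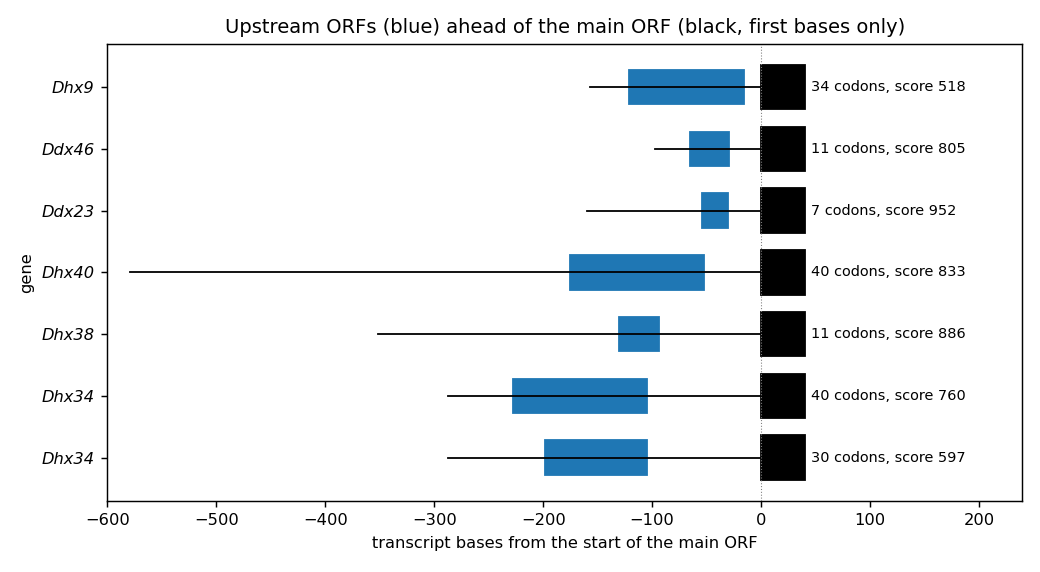
Upstream ORFs (blue) of 6 helicases on their own listed transcripts (black line, from the transcript start), in transcript bases from the start of the main ORF (x axis; the black box marks its first bases only), with codons and authors' score at the right. Stops lie 16 to 105 bases before the main start, and the 2 ORFs of Dhx34 share a stop.

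Another in-frame start with the stop of the main ORF was listed in 9 helicases (19.1%, interval 9.15 to 33.3), against 23% of all families, 9 of 60 translation factors and 7 of 27 SR and hnRNP factors. Such a start gives a protein that lacks the first residues of the longest form. The 9 inner starts, 1 per gene, lay 1 to 57 codons inside the main ORF, with a median of 18, against 23 in all families. Counting each start once, 3 of 9 scored above their main ORF (33.3%, interval 7.49 to 70.1), against 42.6% of 3083 starts in all families.

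The 3 helicases with the higher score at the inner start were Ddx60, Ddx54 and Ddx19a. In Ddx60 the inner start, 26 codons in at position 64418900 of chromosome 8, scored 937, against 600 for the outer one. It was listed with ORFs of 1711, 1710 and 1657 codons, of which the last lacked a whole coding exon of 159 bases. In Ddx54 the inner start, 16 codons in at position 121063193 of chromosome 5, scored 959, against 703 for the outer one shown above, which has 6 bases of leader. In Ddx19a the inner start, 9 codons in, gave 469 codons at score 737, against 478 codons at 636.

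In 6 helicases the inner start scored lower. Ddx17 had an ORF of 650 codons at score 766, against 882 for the main ORF, 57 codons further out. The human gene is known to make a longer and a shorter protein from alternative starts. Dhx16 had 1027 codons at score 616 against 809, 37 codons in. Ddx55 had 600 codons at score 622 against 830, 18 codons in. Its outer start is the ATG shown above, 14 bases from the transcript start.

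Dhx30 had 1194 codons at score 575 against 834, from a start in the second coding exon, 23 codons in. Ddx26b, now Ints6l, had ORFs of 852 and 785 codons at score 553 against 765, from a start 3 codons in. With 5 ORFs from 2 starts it held the most ORFs of any member. In Dhx33 the inner start was 1 codon in, the very next codon, and scored 523 against 817. Starts this close share nearly all their footprints, and how the authors' method set their scores apart is not known here.

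**Figure D3:**
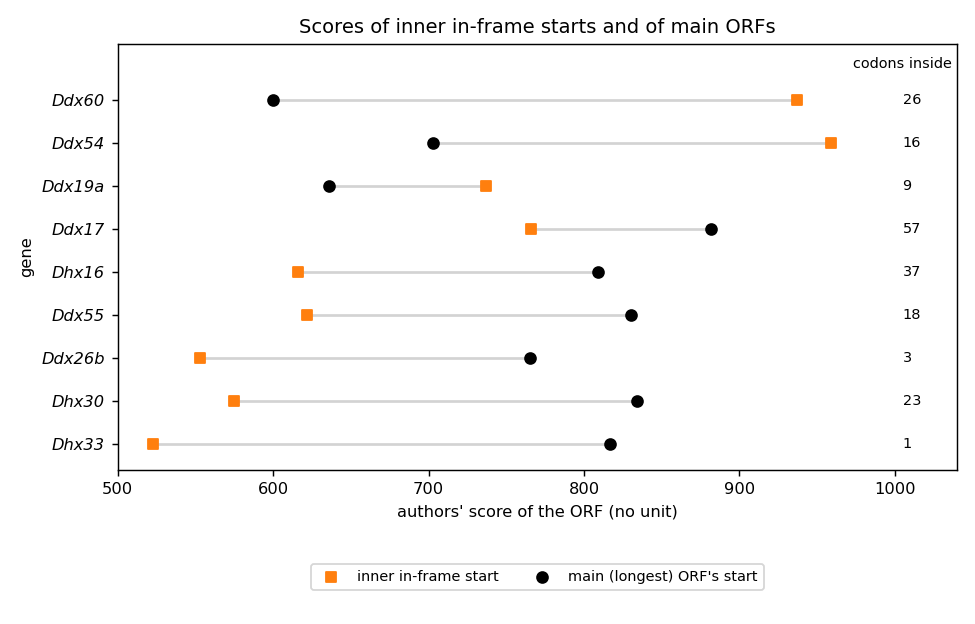
The authors' score (x axis, no unit) of the inner in-frame start (orange square) and of the main, longest ORF (black circle) in the 9 helicases with both, by gene (y axis); the numbers at the right are the codons from the main start to the inner one. The inner start lies to the right in Ddx60, Ddx54 and Ddx19a and to the left in the other 6.

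Splice variants with the start and stop of the main ORF were the most frequent additional ORFs: 18 in 14 helicases (29.8%, interval 17.3 to 44.9), against 17.9% of all families, 9 of 60 translation factors (15%) and 10 of 27 SR and hnRNP factors (37.0%). The interval of the helicases includes the share of all families. Every splice variant had the score of its main ORF. In the whole list, all 2220 groups of ORFs with a common start and stop had 1 score per group, so these scores say nothing on which variant was translated. The comparison of lengths rests on the authors' transcript models.

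In 7 of the 18 variants whole coding exons were left out. Ddx6 lacked an exon of 105 bases (448 codons against 483), Dhx57 one of 159 bases, and Ddx26b one of 129 bases. Ddx50 had a variant without an exon of 288 bases (628 codons against 724) and another without one of 162 bases (670 codons). Dhx35 had variants without an exon of 78 bases (677 codons against 703) and without that exon and one of 60 bases (657 codons). These variants keep the frame, since they end at the main stop codon.

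In 9 variants a single exon edge moved. In Ddx3x the first 3 bases of an exon were left out, at 12868289 to 12868291 in one variant and at 12862041 to 12862043 in the other, and in Dhx9 3 bases at 155326109 to 155326111 of chromosome 1. Each of these 3 variants was 1 codon shorter, and all 3 lay at an exon start. In Ddx17 the last 6 bases of an exon were left out (707 codons against 709). The longer ones were 33 bases in Dhx37, 42 in Dhx38, 54 in Ddx56, 105 in Dhx15 (760 codons against 795) and 183 in Ddx26b. Ddx11 (867 codons against 906) and Dhx30 (1122 against 1217) differed at more than 1 place.

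With isoforms that end at another stop, 15 helicases had a variant of the main ORF (31.9%, interval 19.1 to 47.1), against 23.2% of all families, 13 of 60 translation factors and 16 of 27 SR and hnRNP factors.

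ORFs that shared part of the main frame but ended at another stop were listed in 3 helicases (6.38%, interval 1.34 to 17.5). The shares were 6.78% of all families, 6 of 60 translation factors and 9 of 27 SR and hnRNP factors. In the 3 helicases these ORFs also shared the main start, which the class does not require. Ddx5 had a 369-codon ORF at score 607, against 990 for the 615-codon main ORF. It read 16 bases past an exon end, stopped 357 bases before the last junction of its transcript and left out the last 4 coding exons of the main ORF. Dhx35 had a 119-codon ORF at score 619 against 927, with its stop 1702 bases before the last junction. Ddx50 had a 41-codon ORF at score 624 against 943, which ended in an extra exon of 69 coding bases, 1880 bases before the last junction.

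A stop far ahead of the last exon junction is the textbook mark of transcripts that nonsense-mediated decay removes. Among main ORFs, 2 helicases stopped over 50 bases before the last junction, Dhx36 at 1193 bases and Ddx46 at 55, which is 4.26% (interval 0.520 to 14.5) against 6.12% of all families. Decay itself was not measured. In each of the 3 genes with ORFs from a common start to different stops the scores differed.

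ORFs in another frame inside the main span were listed in 2 helicases, with 4 codons at score 566 in Ddx17 and 2 codons at score 564 in Ddx46, against 8.67% of all families with such an ORF. None lay downstream of a main stop (0 of 47, interval 0 to 7.55%), against 2% of all families. A single ORF was listed for 21 helicases (44.7%, interval 30.2 to 59.9) against 43.5% of all families. By name, 17 of 32 Ddx genes and 4 of 15 Dhx genes had a single ORF, against 43.5% of all families. Upstream ORFs clear of the main start were listed in 2 of 32 Ddx and 4 of 15 Dhx genes, against 16.4% of all families. The counts by name are small, and the difference between Ddx and Dhx genes was not tested.

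**Figure D4:**
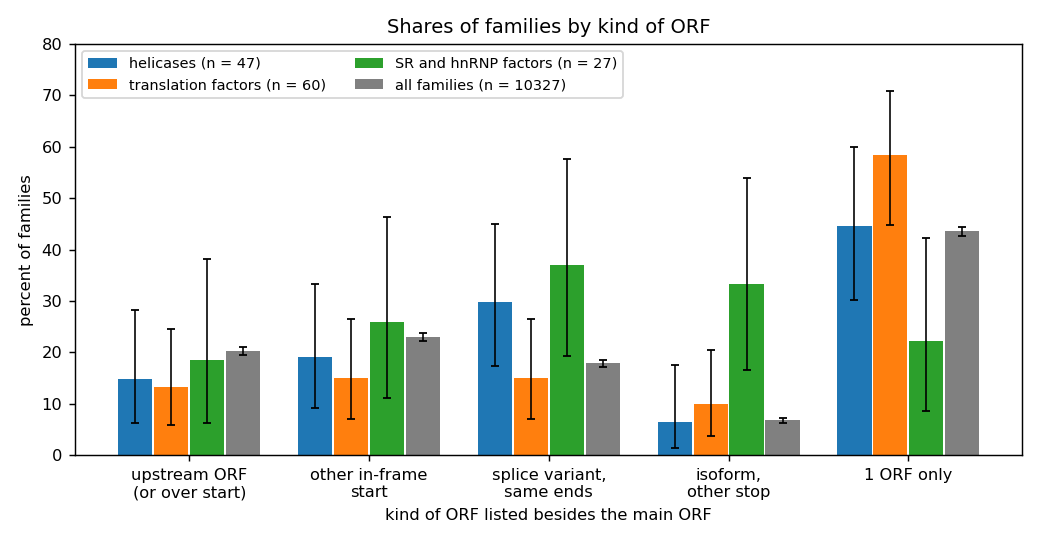
Percent of families (y axis) with each kind of ORF (x axis) among the helicases, translation factors, SR and hnRNP factors, and all families; bars start at 0 and lines are exact Clopper-Pearson 95% intervals, for counting error only. The helicases' interval includes the share of all families in each of the 5 kinds shown. The bars of isoforms with another stop are 6.38% for the helicases, 10% for translation factors, 33.3% for SR and hnRNP factors and 6.78% for all families.

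Other RNA helicases, which carry no Ddx or Dhx name or were left out by the naming rule, were looked up for comparison. Of 24 sought, 18 had an ORF, with a median main score of 946, and 12 scored 900 or more, against 57% of all families. No ORF was listed for Eif4a1, Eif4a2, Skiv2l, Tdrd9, Dqx1 and Hfm1, and why was not tested. Upstream ORFs were listed in 5 of the 18, against 20.2% of all families, another in-frame start in 6, against 23%, and an isoform or splice variant in 4, against 23.2%. Ascc3 (2198 codons, 982) and Dicer1 (1906 codons, 806), which cuts microRNA precursors, had 1 upstream ORF each. Helz2 (2947 codons, 955) and Mov10 (1004 codons, 977) had 2 isoforms or splice variants each.

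The sensors of viral RNA were outside the rule. Ddx58 (RIG-I) had a single ORF of 926 codons at score 966. Dhx58 had 4 ORFs, a longest one of 685 codons at score 568 and 3 from other in-frame starts. Ifih1 (MDA5) had 2 ORFs, with a main ORF of 1025 codons at score 991. They are given as values beside the helicases, with no test.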

How the data were processed

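Ribosome footprints from 37 libraries were turned by the authors into a single list of translated ORFs. Per the submitters' processing notes, Bowtie2, TopHat and the build mm9 were used. For the ORF caller, its settings and the transcript models nothing is given in the sources used here. In the list as deposited, each ORF has exons, a coding span and a score from the authors, a whole number of 500 or more with no stated unit. Depth per library is unknown, and intervals cover counting error only.

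Family names were cut from the ORF names with trailing numbers dropped, and families were separated by chromosome and strand. The longest ORF was the main ORF. The others were classed by coding bases shared in the same frame and by genome position in the direction of the strand. An upstream ORF therefore need not lie on a transcript that holds the main start: 2615 of 2924 in all families did. Shares have exact Clopper-Pearson 95% intervals, and medians exact order-statistic intervals. No test was run. The classing was run on simulated ORFs built from the class definitions, which checks the code and not the classes in the real list. Python 3.11.15, SciPy 1.17.1 and NumPy 2.4.6 were used, with RefSeq tables (GRCm38.p6) for symbols and start codons. Every helicase was named once by role, with fuller values for those with upstream ORFs, other starts, the highest or lowest 5 scores or most ORFs. Members, lists and roles were chosen with earlier results of these data known. Planned comparisons with protein sequences were not run.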

Additional observations from a re-analysis of the deposited data

How the results depend on the processing

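With ORFs of score 900 or more alone, 46 ORFs in 31 helicases were left, with a median main score of 973. At that setting 0 helicases had an upstream ORF (5.77% of all families) and 0 another in-frame start (0.429% of all families), in part because the class follows from the main ORF: the upstream ORF of Ddx23 (7 codons, score 952) and the inner starts of Ddx54 (858 codons, 959) and Ddx60 (1711 codons, 937) passed 900 and became main ORFs once the longer ORF dropped out. With 1 ORF per stop codon, 59 ORFs were left, 0 helicases had another in-frame start and 6.38% had an isoform, as that setting removes ORFs with a common stop by construction. The other counts, shares and medians over all members stayed within 1.5 times the count or within the interval reported. The upstream share was 13.3% at a score of 600 or more (17.7% of all families) and 8.51% at 30 codons or more (8.79% of all families). It was 10.6% with the highest-scoring ORF as main ORF (16.5% of all families) and 13.0% without Ddx4. Alternatives on Ddx4, on numbered names and on leaving out ORFs over the main start were chosen after seeing the data. With the highest-scoring ORF as main ORF, the main ORF changed in the same 3 genes and in Ddx19a (469 codons) and Dhx40 (40 codons). No paired analysis was possible because the list holds no value per library, and no replicate could be left out. The planned results on protein length, motif II and paralog identity, with their alternatives, were not run, as no protein sequences were used here. Scores are the authors' and depth is unknown, so an ORF that is not in the list cannot be told apart from one with too few footprints.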
